A study of Aspergillus nidulans with 12 samples.

Results

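The Aspergillus nidulans genes AN7482, AN1094, AN8694 and AN5055 carried anti-FLAG peaks in every library of both tagged strains. The score percentile of the main peak in its list ran from 77.2 (AN5055, LaeA::FLAG replicate 3) to 100 (AN7482, VeA::FLAG replicates 2 and 3). They were selected on the peak scores and peak calls of these same libraries, promoter peaks in all replicates among them, so the scores, the signals, the distance to the gene and the number of libraries with a peak are given as a description and not as a test. The 4 genes are among 9656 genes that a peak or region named as nearest, and 48 of the 31953 peaks in 11 lists named them. The members were not chosen by a fixed score, and their ranks therefore differ widely, as given for each gene.

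VeA is a velvet family protein that moves into the nucleus in the dark, where it can form a complex with VelB, another velvet protein with a DNA-binding domain, and with LaeA, a nuclear methyltransferase-like protein. Together they govern sexual development and the production of secondary metabolites in Aspergillus. Chromatin immunoprecipitation with sequencing (ChIP-seq) recovers DNA cross-linked to a tagged protein, and a peak marks a place where sequenced fragments (tags) pile up.

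The VeA::FLAG strain, RJW324.3, carried a FLAG epitope at the C terminus of VeA, with the riboB marker of Aspergillus fumigatus beside it. The LaeA::FLAG strain, RJW302.11, carried the same tag and marker at the C terminus of LaeA, with untagged VeA, and the WT strain, RDIT9.32, had no tag. All 3 strains were grown vegetatively in liquid glucose minimal medium for 24 h in the dark, and each was 1 strain. Each strain gave 3 libraries with anti-FLAG antibody and 1 library with anti-rabbit IgG, which served as the background of all peak calls of that strain. The labels do not say whether replicates came from separate cultures. The anti-FLAG libraries held 319742 to 7974006 tags and their lists held 134 to 5783 peaks, whereas the VeA::FLAG and LaeA::FLAG combined lists, called on the pooled tags of 3 libraries, held 5502 and 3333 peaks. WT replicate 3 was the shallowest library and LaeA::FLAG replicate 3, although the deepest of its strain, had the shortest list of the tagged strains, with 557 peaks.

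AN5055 is listed as fpaI and is predicted to encode a methionine aminopeptidase, an enzyme that removes the first methionine from new proteins. The sources used here gave no name and no role for AN7482, AN1094 and AN8694, so these are described by position alone. Positions are those of the FGSC A4 assembly in the lists, and distances run from the centre of a peak to the start of the nearest exon. The signal of a peak is the number of tags in it scaled to a library of 10 M tags. Peak width differed by list, so signals of different lists cover different widths. The median width was 202, 152 and 146 bp in VeA::FLAG replicates 1, 2 and 3 and 200, 198 and 268 bp in the LaeA::FLAG replicates. It was 264 bp in the VeA::FLAG combined list and 276 bp in the LaeA::FLAG combined list. The part of width in the signals was not tested.

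The highest member peak lay upstream of AN7482, on chromosome IV from 1680400 to 1680664 in the VeA::FLAG combined list. Its centre was 795 bp upstream of exon 1. The anti-FLAG signal at this site was 3987, 4088 and 3393 in VeA::FLAG replicates 1, 2 and 3, and 1305, 2174 and 1282 in the LaeA::FLAG replicates, whereas no WT library had a peak there. All VeA::FLAG values lay above all LaeA::FLAG values, as at 18% (9) of the 50 sites called in all 6 tagged libraries. The means were 3823 ± 376 in VeA::FLAG and 1587 ± 508 in LaeA::FLAG (SD, n = 3 each), a ratio of 2.41. The peak had the highest score in VeA::FLAG replicates 2 and 3 and rank 3 in replicate 1. It ranked 30 of 2471, 28 of 2217 and 32 of 557 in LaeA::FLAG replicates 1, 2 and 3.

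The IgG signal in the AN7482 peak differed between the strains. It was 7.16 in each single VeA::FLAG list, which is 1.5 tags, and 83.9 to 98.0 in the LaeA::FLAG lists, which is 89.0 to 104 tags. The ratio of anti-FLAG to IgG signal was 571 in VeA::FLAG replicate 2, with a 95% counting interval of 133 to 7951, and 14.1, 25.9 and 13.1 in LaeA::FLAG replicates 1, 2 and 3. The ratio in VeA::FLAG rested on very few IgG tags. Such intervals cover counting error only.

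A second site of AN7482 lay inside its exon 1, on chromosome IV from 1679441 to 1679705, with its centre 164 bp after the exon start and 959 bp from the upstream centre. It was called in all 3 VeA::FLAG libraries, at signals of 2220, 1194 and 1518, and in LaeA::FLAG replicate 2 alone of the LaeA::FLAG libraries, at 819. The VeA::FLAG IgG library had 0 tags there, so the signal was at least 155-fold higher than IgG in VeA::FLAG replicate 1 and at least 83.4-fold higher in replicate 2, taking 3 tags as the limit that a count of 0 allows. AN7482 was the single member with an additional site called in every library of a strain under its own name.

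The AN1094 peak lay on chromosome VIII from 1538838 to 1539102 in the VeA::FLAG combined list, centred 588 bp upstream of exon 1. Its signal was 2498, 2770 and 1085 in VeA::FLAG replicates 1, 2 and 3, and 1426, 1133 and 1870 in the LaeA::FLAG replicates, with no WT peak at the site. VeA::FLAG replicate 3 was the lowest of the 6 libraries, so the strains overlapped. The means were 2118 ± 905 in VeA::FLAG and 1476 ± 371 in LaeA::FLAG (SD, n = 3 each). In the combined lists the peak ranked 6 of 5502 and 26 of 3333.

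AN1094 had the highest IgG background of the 4 peaks in the VeA::FLAG strain. The IgG signal was 217, 129 and 217 in VeA::FLAG lists 1, 2 and 3, at or above 99.8%, 99.4% and 99.9% of the peaks of those lists, and 141, 148 and 173 in the LaeA::FLAG lists. The anti-FLAG signal was 11.5, 21.5 and 5.00 times IgG in the VeA::FLAG replicates and 10.1, 7.63 and 10.8 times IgG in the LaeA::FLAG replicates. The VeA::FLAG IgG values come from 1 library, so they differ with the extent of the peak. The peak of replicate 2, from 1538892 to 1539044, held 27 IgG tags, and that of replicate 3, from 1538900 to 1539046, held 45.5. A smaller peak in VeA::FLAG replicate 3, 120 bp upstream of exon 1, had a signal of 409 and 1 IgG tag.

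The AN8694 peak was not in a promoter. It lay in an intergenic stretch of chromosome III from 3096518 to 3096782 in the VeA::FLAG combined list, 3902 bp upstream of exon 1. The signal was 1796, 1706 and 1109 in VeA::FLAG replicates 1, 2 and 3, and 1400, 1329 and 1968 in the LaeA::FLAG replicates. The strains overlapped, with means of 1537 ± 373 in VeA::FLAG and 1566 ± 350 in LaeA::FLAG (SD, n = 3 each), and the ratio of the means was 0.982. The IgG signal was 19.1, 14.3 and 14.3 in the VeA::FLAG lists and 137, 131 and 158 in the LaeA::FLAG lists.

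Between the main site and the gene, a peak centred 3109 bp upstream of exon 1 in the VeA::FLAG combined list and 3067 bp upstream in VeA::FLAG replicate 3 had signals of 1021 and 1068 with 0 IgG tags and was in no other list. Promoter peaks of AN8694 were found in the combined lists only. Upstream ones were centred 872 bp upstream of exon 1 in the VeA::FLAG list, with a signal of 897, and 890 bp upstream in the LaeA::FLAG list, with a signal of 797. IgG was high at both, at 198 and 211, so anti-FLAG was 4.53 and 3.77 times IgG. The LaeA::FLAG combined list had 1 more peak of the promoter class, centred 173 bp after the start of exon 1, with a signal of 624 and an IgG signal of 163, a ratio of 3.83. No single library had a peak within 1.5 kb upstream of exon 1 of this gene.

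AN8694 was also the single member with WT peaks. WT replicate 3 had a peak of 860, from 27.5 tags, centred 243 bp from the VeA::FLAG combined centre, and a peak of 1345, from 43.0 tags, near the end of the gene. The WT peak beside the main site had an IgG signal of 181, a ratio of 4.76. No WT peak was centred within 100 bp of a main peak centre of the 4 genes. By extent, this WT peak ended at 3096511 and overlapped the main peak of LaeA::FLAG replicate 3, which began at 3096508. The part of this WT signal in the AN8694 result was not tested.

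One further site beside AN8694 changed its gene name between lists. Between 767 and 845 bp from the main centre, on the side away from AN8694, a peak was called in all 3 VeA::FLAG libraries and in LaeA::FLAG replicates 1 and 2, with signals of 1083 to 1477 over these and the combined lists. It was assigned to AN8695 in every list except that of LaeA::FLAG replicate 2, in which the centre was 4669 bp from exon 1 of AN8694. This site lay about midway between the nearest exons of both genes, and a shift of a few bases changed the name.

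The AN5055 peak lay on chromosome III from 141276 to 141540 in the VeA::FLAG combined list, 611 bp upstream of exon 1. The signal was 1887, 1416 and 628 in VeA::FLAG replicates 1, 2 and 3, and 626, 1015 and 719 in the LaeA::FLAG replicates, with no WT peak at the site. VeA::FLAG replicates 1 and 2 were above all LaeA::FLAG libraries and replicate 3 was within their range. The means were 1310 ± 636 in VeA::FLAG and 786 ± 203 in LaeA::FLAG (SD, n = 3 each).

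AN5055 had the lowest rank of the 4 in both combined lists. Its score ranked 8 of 4252, 29 of 5672 and 220 of 5783 in VeA::FLAG replicates 1, 2 and 3. In the LaeA::FLAG replicates it ranked 208 of 2471, 99 of 2217 and 128 of 557. It was in the top 0.527% of the VeA::FLAG combined list and the top 3.69% of the LaeA::FLAG combined list. Its lowest score percentile, 77.2 in LaeA::FLAG replicate 3, put it at place 24 of the 50 sites called in all 6 tagged libraries. The IgG signal was 52.5, 0 and 0 in the VeA::FLAG lists and 101, 102 and 77.8 in the LaeA::FLAG lists. AN5199, the other gene of the series predicted to encode a methionine aminopeptidase, had a single peak, in VeA::FLAG replicate 3, 111 bp upstream of exon 1 with a signal of 529.

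**Figure D1:**
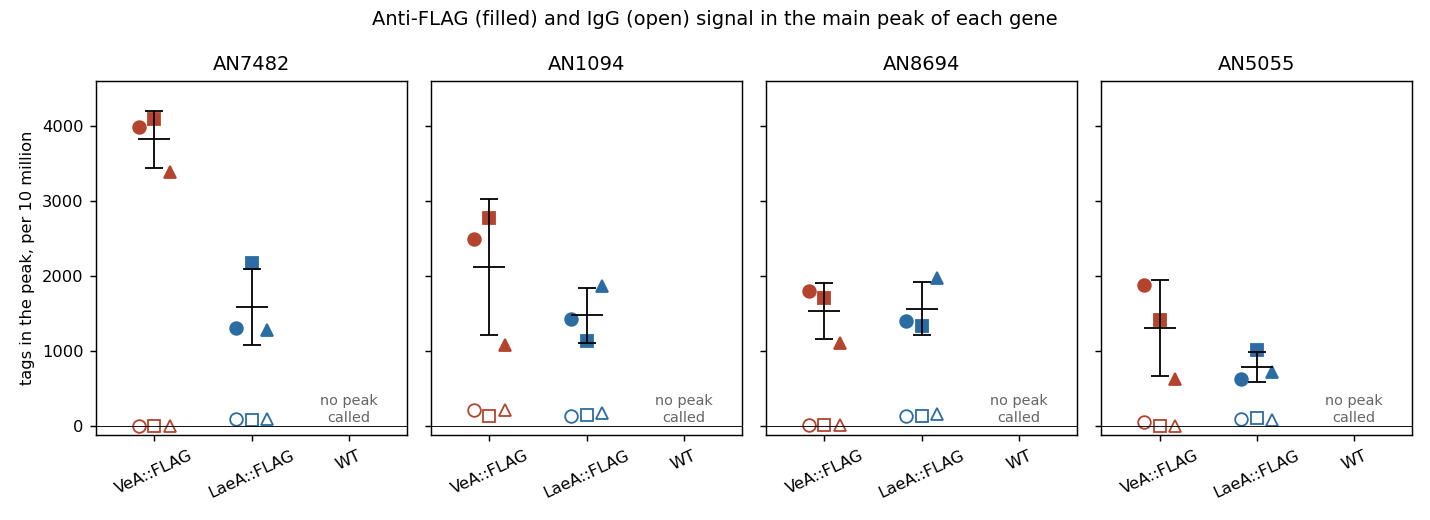
Signal in the main peak of each gene, in tags per 10 M, with 1 point per library (circle, square and triangle for replicates 1, 2 and 3). Filled points are anti-FLAG, open points are IgG of the same strain in the same peak, and bars are mean and SD of 3 libraries. VeA::FLAG lies above LaeA::FLAG without overlap at AN7482 only, and no WT library had a peak centred within 100 bp of these centres.

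The order of the levels was not the same in the strains. In VeA::FLAG, AN7482 was the highest and its range of 3393 to 4088 did not overlap that of AN1094, whereas AN1094 and AN8694, and AN8694 and AN5055, overlapped as neighbours in the order. In LaeA::FLAG, AN7482, AN8694 and AN1094 averaged 1587, 1566 and 1476 and overlapped, and the range of AN5055 lay below those of the other 3, with a highest value of 1015 against a lowest of 1133 for AN1094. VeA::FLAG replicate 3 had the lowest VeA::FLAG signal at all 4 main sites. Its list had the narrowest peaks, at 146 bp, against 152 bp in replicate 2 and 202 bp in replicate 1. VeA::FLAG replicate 2 was the highest at AN7482 and AN1094, and replicate 1 at AN8694 and AN5055. The part of width in these levels was not tested. The spread over replicates was 9.83% to 48.5% of the mean in VeA::FLAG and 22.4% to 32.0% in LaeA::FLAG.

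To read the missing WT peaks against depth, the levels were turned into tags. A site at the mean VeA::FLAG level would hold 122 tags at AN7482, 67.7 at AN1094, 49.2 at AN8694 and 41.9 at AN5055 in WT replicate 3, the shallowest library, and the weakest peak called there had 7.5 tags. At the mean LaeA::FLAG level of AN5055 it would hold 25.1 tags. The median signal of the WT replicate 3 peaks was 1923. Of these peaks, 66.7%, 53.7%, 42.8% and 37.3% lay below the VeA::FLAG means, in the same order of genes. The level needed for a call at these sites was not tested. The nearest WT peaks to the AN7482 centre were 15656 bp away or farther. Those nearest to AN1094 and AN5055 were 2288 and 4230 bp away, both in WT replicate 2.

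Peaks in all replicates were uncommon among genes, but the 4 were not alone. Of 9656 genes, 14.5% were named by a peak in all 3 VeA::FLAG libraries, 2.15% in all 3 LaeA::FLAG libraries and 1.34% (129 genes) in all 6 tagged libraries. All 4 genes are in the last group because they were chosen that way, and nothing is read from their count. A peak in all 6 tagged libraries and in no WT library was found for 0.911% of genes (88 genes), among them AN7482, AN1094 and AN5055. A peak within 1.5 kb upstream of exon 1 in all 6 was found for 0.507% (49 genes), with the same 3 members. A peak in at least 1 WT library named 19.4% of genes, and AN8694 was 1 of these.

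How closely the centres of the lists coincided was not named in the choice of the genes, although the centres come from the same peaks. The VeA::FLAG and LaeA::FLAG combined centres were 9 bp apart at AN7482, 8 bp at AN1094, 14 bp at AN8694 and 18 bp at AN5055. Over the 6 single libraries the centres spanned 30, 31, 73 and 152 bp at these genes. There were 50 sites at which peaks of all 6 tagged libraries chained together within 100 bp, and their median span was 92 bp. AN7482, AN1094 and AN8694 were thus tighter than the median of these sites and AN5055 was wider.

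**Figure D2:**
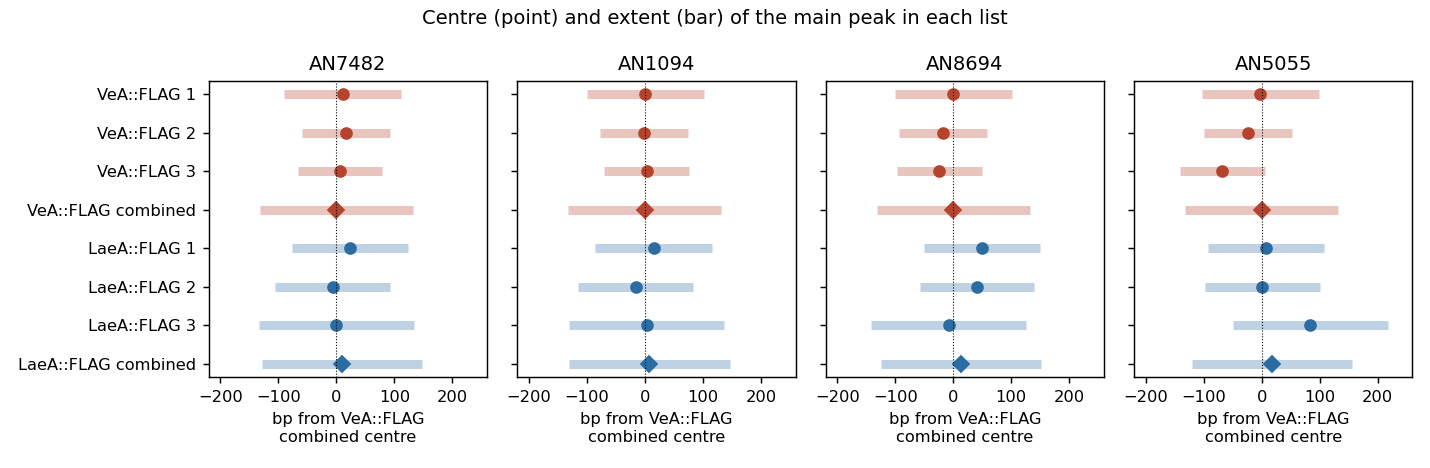
Centre (point, or diamond for a combined list) and extent (bar) of the main peak in each list, in bp from the VeA::FLAG combined centre. The centres at AN7482 and AN1094 stay within a span of 30 and 31 bp, and those at AN5055 span 152 bp.

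At AN8694, LaeA::FLAG replicates 1 and 2 were centred closer to the gene than all other single libraries. VeA::FLAG centres were 3902, 3920 and 3926 bp upstream of exon 1 in replicates 1, 2 and 3, and LaeA::FLAG centres were 3853, 3861 and 3910 bp upstream. The medians of the single libraries were 59 bp apart, against 14 bp for the combined peaks. At AN5055 the outermost centres were those of VeA::FLAG replicate 3, at 543 bp upstream, and LaeA::FLAG replicate 3, at 695 bp upstream, and the other single libraries were between 588 and 618 bp.

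The focus ratio, the share of the tags of a peak found on the side of the centre where their strand places them, was a further measure the choice did not use. It averaged 0.786 ± 0.011 in VeA::FLAG and 0.710 ± 0.054 in LaeA::FLAG at AN7482 (SD, n = 3 each). At AN1094 it was 0.821 ± 0.084 in VeA::FLAG and 0.761 ± 0.038 in LaeA::FLAG. At AN8694 it was 0.739 ± 0.061 and 0.699 ± 0.067 in the same order. At AN5055 it was 0.839 ± 0.080 in VeA::FLAG and 0.712 ± 0.077 in LaeA::FLAG. The medians over all peaks of the single lists were 0.815 to 0.844 in VeA::FLAG and 0.723 to 0.813 in LaeA::FLAG. The VeA::FLAG means at AN7482 and AN8694 were below the median of each VeA::FLAG list. The LaeA::FLAG means at AN7482, AN8694 and AN5055 were below the median of each LaeA::FLAG list.

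**Figure D3:**
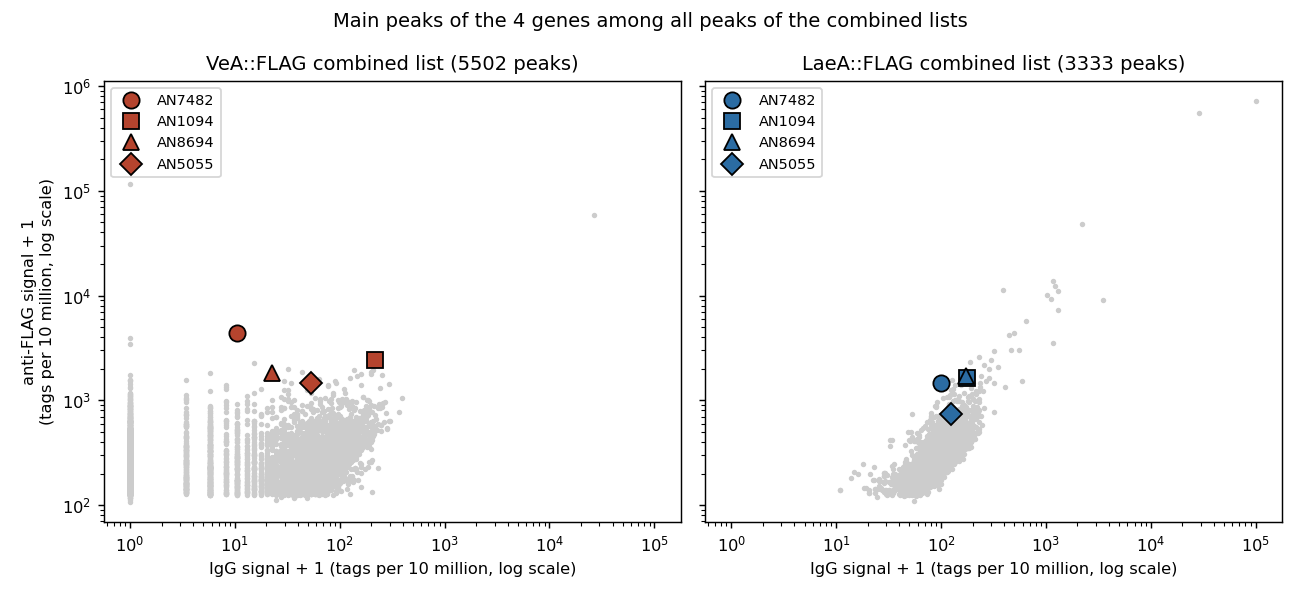
Anti-FLAG against IgG signal, both with 1 added and on log scales, for all peaks of the VeA::FLAG and LaeA::FLAG combined lists (grey) with the main peaks of the 4 genes marked. AN7482 stands high at an IgG signal of 9.55 in VeA::FLAG, and AN1094 combines a high signal with an IgG signal of 217.

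The IgG library of VeA::FLAG held 2095244.5 tags and that of LaeA::FLAG 10610394 tags. The median IgG signal over the combined peaks was 19.1 in VeA::FLAG and 92.4 in LaeA::FLAG, and 1906 of the VeA::FLAG peaks and 0 of the LaeA::FLAG peaks had no IgG tag. Anti-FLAG was 458, 11.1, 84.0 and 27.7 times IgG at AN7482, AN1094, AN8694 and AN5055 in the VeA::FLAG combined list, with lower 95% counting limits of 127, 8.28, 34.4 and 15.4. It was 14.8, 9.14, 9.94 and 5.98 times IgG in the LaeA::FLAG combined list, where the median over peaks was 2.78. The median over the VeA::FLAG peaks with an IgG tag was 5.20. AN5055 had the lowest ratio in LaeA::FLAG and AN1094 the lowest in VeA::FLAG.

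IgG was also given for merged regions, which are wider than the peaks. Among 21897 regions, the region at AN7482 was at percentile 73.3 of the VeA::FLAG IgG signal, 91.4 of LaeA::FLAG IgG and 97.0 of WT IgG. In the same order of IgG libraries, AN1094 was at percentiles 94.5, 96.6 and 93.3, AN8694 at 56.6, 94.99 and 98.4, and AN5055 at 56.0, 91.6 and 75.9. All 12 values were above the median region by signal per region, and the WT IgG signal was 361 at AN7482 and 439 at AN8694, against a median of 77.2. The AN8694 region also held the WT replicate 3 peak beside the main site, which alone had a WT IgG signal of 181. The regions were 487 to 619 bp wide, and by signal per kb 4 of the 12 fell below the median region, namely AN8694 and AN5055 in VeA::FLAG IgG, at percentiles 43.7 and 40.4, and AN5055 in LaeA::FLAG IgG and in WT IgG, at 44.6 and 37.1.

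At AN7482 the VeA::FLAG IgG tags lay mostly beside the centre. The combined peak covered 54.4% of the merged region and held 8.89% of its VeA::FLAG IgG tags (2 of 22.5). With LaeA::FLAG IgG, the combined peak covered 56.9% and held 46.5% of the tags (105.5 of 227). At AN1094 the VeA::FLAG combined peak held 85.8% of the VeA::FLAG IgG tags in 42.8% of the width, and at AN5055 it held 100% (11 of 11) in the same share of the width. At AN8694 it held 39.1% (4.5 of 11.5) in 53% of the width. The 11 tags at AN5055 were also in the peak of VeA::FLAG replicate 1, from 141305 to 141507. The peaks of replicates 2 and 3, from 141309 to 141461 and from 141267 to 141413, held 0 IgG tags. The combined centre, at 141408, lay within both of these, so the AN5055 tags also lay beside the centre. The part of this local background in the scores was not tested.

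The surroundings differed among the genes. Near AN7482, AN11749 had peaks in VeA::FLAG replicates 1 and 2 and in LaeA::FLAG replicate 2, 5709 to 6243 bp from the main centre, with signals of 796, 758 and 458. The combined lists of VeA::FLAG and LaeA::FLAG had signals of 839 and 385 there. AN7481 was named in LaeA::FLAG replicate 1 and the LaeA::FLAG combined list, AN7480, within 10 kb of the exon 1 site, in VeA::FLAG replicate 2 and the VeA::FLAG combined list, and AN11748 in the LaeA::FLAG combined list only, 916 bp from the main centre and 153 bp upstream of its own start. No WT peak lay within 10 kb of the AN7482 peaks.

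Near AN1094, the peaks of AN1096 formed a group 7019 to 8764 bp away. They came from VeA::FLAG replicate 1, LaeA::FLAG replicates 1 and 2 and both combined lists, with signals of 502 to 1226. AN1093 had peaks in VeA::FLAG replicates 2 and 3 of at most 312, and AN10157 was named in 1 VeA::FLAG and 1 WT library.

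Near AN8694, AN8695 and AN8696 were named by 5 and 3 libraries, and AN11109, which lies on the far side of the promoter peaks of AN8694, by 3. Peaks of AN8695 included 2 of WT replicate 2, at 2111 and 2703 bp from the main centre, with signals of 369 and 211. Near AN5055, AN5057, listed as cdcA, had peaks in all 3 VeA::FLAG libraries 9711 to 9887 bp away, with signals of 293 to 486, and it was also named by 1 LaeA::FLAG and 1 WT library. AN5056 and AN11456 start beside each other on opposite strands, and 4427 to 4679 bp from the AN5055 centre LaeA::FLAG replicates 1 and 2, VeA::FLAG replicate 3 and both combined lists had peaks. AN5053 was named in VeA::FLAG replicate 3 and WT replicate 2. Closer to the AN5055 main centre, VeA::FLAG replicate 2 had a further peak of AN5055, 455 bp away, with a signal of 330 and an IgG signal of 50.1. LaeA::FLAG replicate 2 had a peak assigned to another gene, 584 bp from that centre, with a signal of 453.

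**Figure D4:**
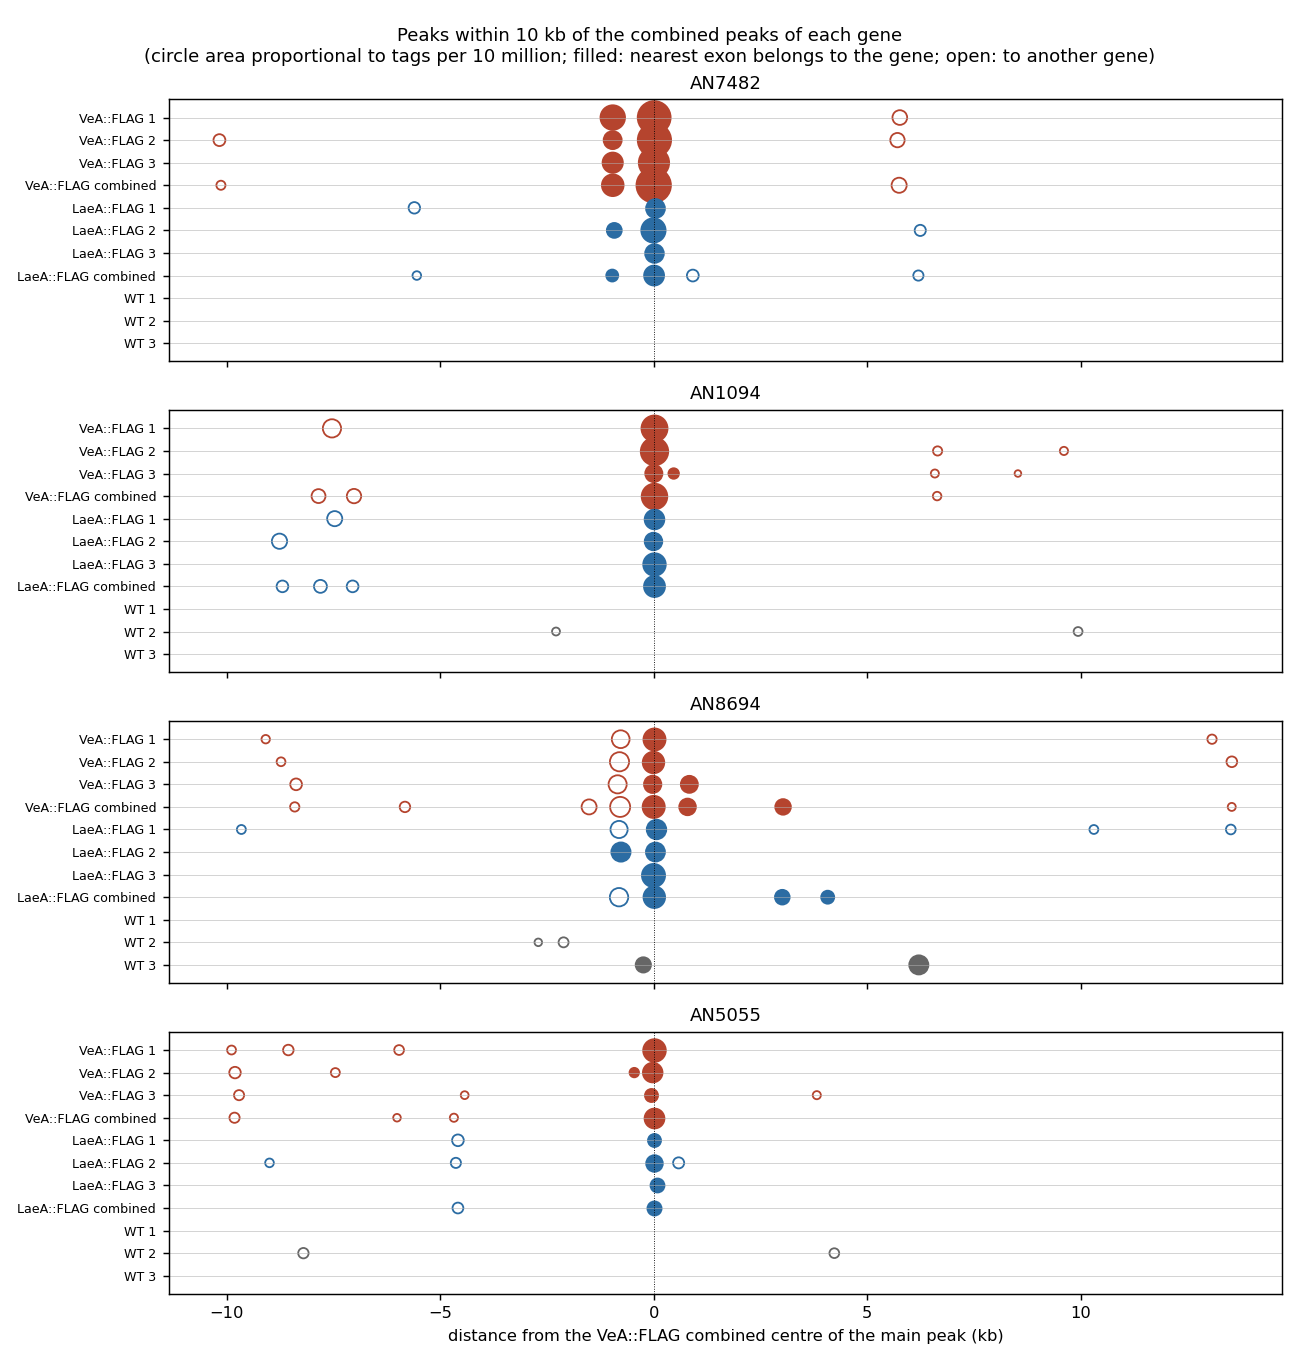
Peaks within 10 kb of the combined peaks of each gene, by distance in kb from the VeA::FLAG combined centre, with 1 row per list. The area of a circle is proportional to its signal, and filled circles were assigned to the gene itself. At each gene the column at 0 is filled in all tagged lists and empty in WT, and at AN8694 a WT replicate 3 peak lies 243 bp beside it.

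Neighbouring peaks were not named in the choice of the genes, and their share was compared between strains. The windows were drawn around combined peaks of the tagged strains only. A site beside the AN8694 main peak, 767 to 845 bp from its centre, was counted where it was assigned to AN8695. This was so in VeA::FLAG replicates 1, 2 and 3 and LaeA::FLAG replicate 1, but not in LaeA::FLAG replicate 2. The counts are therefore not fully separate from the choice. The peaks within 10 kb of the combined peaks, with those of the 4 genes left out, numbered 8, 9 and 7 in VeA::FLAG replicates 1, 2 and 3, 7, 5 and 0 in the LaeA::FLAG replicates and 0, 6 and 0 in the WT replicates. They made up 0.156 ± 0.034% of the peaks of a VeA::FLAG library, 0.170 ± 0.150% of a LaeA::FLAG library and 0.109 ± 0.189% of a WT library (SD, n = 3 each). By exact two-sided permutation tests, for which 0.1 is the smallest p possible, VeA::FLAG minus WT was 0.0467 percentage points (p = 0.8), LaeA::FLAG minus WT 0.0604 (p = 1) and VeA::FLAG minus LaeA::FLAG -0.0137 (p = 0.9). After Benjamini-Hochberg adjustment over the 3 comparisons, each p was 1. When every list was shortened to its 134 highest scores, VeA::FLAG minus WT was 0.995 percentage points (exact permutation p = 0.1, the smallest possible). The VeA::FLAG neighbours left were the AN8695 peak beside the AN8694 main site, at ranks 42, 40 and 22 in the 3 replicates. The other was an AN1096 peak of replicate 1, at rank 52. Short lists limit these comparisons. A limit of 3 counts puts 0 of 134 peaks in WT replicate 1 at a share of up to 2.24% and 0 of 557 in LaeA::FLAG replicate 3 at up to 0.539%, and the upper Wilson limits, which are another bound, were 2.79% and 0.685%.

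**Figure D5:**
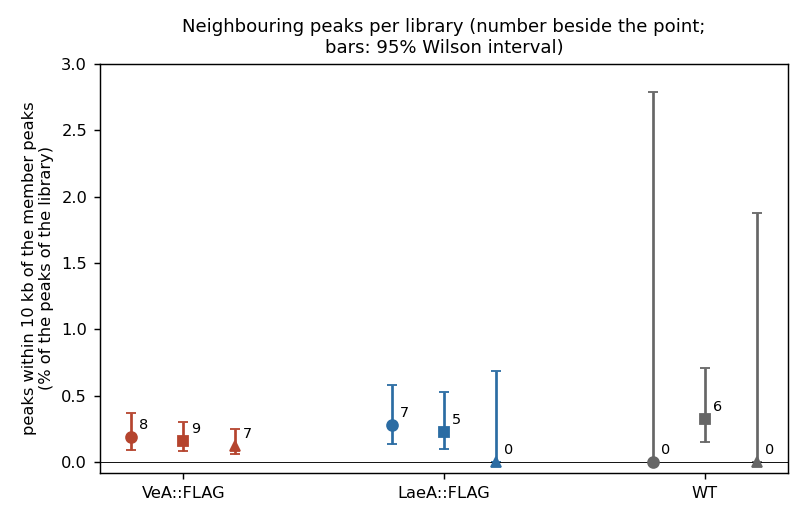
Share of the peaks of each anti-FLAG library that lie within 10 kb of the combined peaks of the 4 genes, their own peaks left out, in %. Numbers of peaks stand beside the points and bars are 95% Wilson intervals, and the 3 strains overlap.

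Over the 9 anti-FLAG libraries, the genes most like each member were found from the percentile of their best peak in each list (0 where there was none), as the Euclidean distance over 9 values. AN12030, AN0280 and AN0186 were nearest to AN7482, at distances of 1.60, 1.68 and 1.72 percentile points. AN0186, AN12030 and AN6787 were nearest to AN1094, at 1.69, 1.90 and 2.22, so 2 of the 3 were the same genes as for AN7482. AN4159, listed as glnA, the glutamine synthetase gene, and AN4419, listed as dspC, were nearest to AN8694, at 12.2 and 19.4, and each also had peaks in 1 WT library, while the next, AN0186, was at 36.8. AN12054, AN1543, listed as osm1, and AN5002 were nearest to AN5055, at 7.04, 8.69 and 8.72. These genes share libraries and list lengths with the members, and no test was made.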

How the data were processed

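ChIP-seq peak lists of 9 anti-FLAG libraries, combined lists of VeA::FLAG and LaeA::FLAG, and IgG values in merged regions were used. The authors mapped reads with bowtie2 and called and annotated peaks with HOMER 4.11. The deposited signal is tags per 10 M, the deposited score is the peak score of HOMER, and the deposited focus ratio is a fraction. Deposited distances run to the nearest exon start.

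A peak belonged to a gene if its nearest exon did. The members and gene lists were chosen with earlier results of these data known. Centres up to 100 bp apart were chained into sites. Named genes were the 4 members, genes named by a combined peak or by 2 or more libraries within 10 kb of a combined member peak, the 3 genes most like each member, and AN5199. A search by gene product was not made, since the gene table used here holds symbols only. Of 9656 gene identifiers, 92.0% were matched to that table, of assembly ASM1142v1, which was used for names.

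Ranks used the score. Counting intervals of ratios were conditional exact intervals on the tags. Shares of neighbouring peaks were compared by exact permutation in SciPy 1.17.1, checked on simulated data. p-values measure the spread between these libraries, which may be technical. Neither sequences nor motifs were analysed here.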

Additional observations from a re-analysis of the deposited data

How the results depend on the processing

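The number of libraries with a peak stayed within 1.5 times for AN7482, AN1094 and AN5055 under the 5 alternatives run, and for AN8694, named in 7 of 9 libraries, it became 0 when only promoter peaks or peaks within 1.5 kb upstream of exon 1 were counted. The median rank of the 4 peaks in the VeA::FLAG combined list was 9.5 by score and 2207 by the ratio to IgG with 1 unit added, where the 1906 peaks without an IgG tag can rank first. It was 29 in the LaeA::FLAG list and stayed within 1.5 times under the 3 alternatives. Per kb, the median IgG percentile of the 4 regions was 51.2 in VeA::FLAG IgG, 73.1 in LaeA::FLAG IgG and 80.4 in WT IgG, and per region it was 65.0, 93.3 and 95.2 in the same IgG libraries. Without each replicate in turn, the median distance between the centres of the strains, from the median centres of the single libraries, was 14.5 to 32 bp, against 20.5 bp with all replicates and 11.5 bp between the combined peaks.

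For the share of neighbouring peaks, leaving out each replicate gave -0.00789 to 0.156 percentage points for VeA::FLAG minus WT, 0.00354 to 0.170 for LaeA::FLAG minus WT and -0.0985 to 0.0432 for VeA::FLAG minus LaeA::FLAG. Without WT replicate 1 or WT replicate 3 the first was -0.00789. VeA::FLAG minus LaeA::FLAG also turned to 0.00381 without VeA::FLAG replicate 3, 0.0432 without LaeA::FLAG replicate 1 and 0.0143 without LaeA::FLAG replicate 2. With a 5 kb window, VeA::FLAG minus WT was -0.0418 and LaeA::FLAG minus WT -0.00228, and VeA::FLAG minus LaeA::FLAG was 0.00708 when peaks within 1 kb of a higher peak were not counted. With equal numbers of top-scoring peaks the differences were larger, at 0.995 for VeA::FLAG minus WT, 0.498 for LaeA::FLAG minus WT and 0.498 for VeA::FLAG minus LaeA::FLAG (exact permutation p of 0.1, 1 and 0.6). The LaeA::FLAG neighbours then counted were peaks of AN8695, beside the AN8694 main site, and AN1096, both in replicate 1, at ranks 48 and 101. Those of VeA::FLAG were also peaks of AN8695, at this site, and of AN1096. The cause of the differences was not tested. Leaving out AN8694 and its window, an alternative chosen after seeing the data, kept all 3 directions. With the replicate number as a block, the differences were 0.0467, 0.0604 and -0.0137, with exact sign permutation p of 0.75, 1 and 1. The labels do not say whether same-numbered libraries share more than a number. Deviations of same-numbered VeA::FLAG and LaeA::FLAG libraries had correlations of -0.012, -0.065 and -0.035 over 129 genes. These genes had peaks in all tagged libraries and WT was not included, so this cannot decide whether libraries were paired.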
